A study of Homo sapiens with 4 samples.

Results

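The p53 target genes are a set of 31 human genes that are switched on by p53 or regulate it, taken from a list of gene names. The genes were chosen with earlier results of these data known. They were read on 4 expression arrays of A375 and SK-MEL-28, which are 2 established human lines from melanomas that carry an activating BRAF mutation. In each line 1 sample was transfected with a negative control siRNA and 1 with an siRNA that targets the zinc-finger factor ZIC5, and RNA was taken 48 h later. Each group was therefore 1 array, and the labels name 1 ZIC5 siRNA treatment without its sequence. Each gene was read from the probe set with the highest mean log2 intensity over the 4 arrays. Of the 31 genes, 29 had a probe set of their own, against 19775 genes in all, and 28 reached a mean log2 intensity of 5, which is an intensity of 32, against 13794 genes in all. SPATA18, a mitochondrial quality control gene, lay under that minimum. BTG2, an antiproliferative gene, and FDXR, a mitochondrial reductase, had no probe set of their own in the gene table used here and are not analysed here.

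p53 is a transcription factor that is held at a low level by the ubiquitin ligase MDM2 and its partner MDM4, and that accumulates when DNA damage or other stress interrupts this loop. It then binds paired half-sites near its target genes, which stop the cell cycle, repair DNA, adjust metabolism or bring on cell death, while MDM2 itself is a target and closes the loop. In melanoma the pathway is often held down through MDM2, MDM4 or loss of CDKN2A. A375 is known as a line with functional p53 and SK-MEL-28 as a line without it. This status is not in the labels and was not measured here. With 1 line of each status, p53 status and every other difference between the lines cannot be told apart.

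The sequences below show where a full p53 motif lies in the members that held one near a start site. RefSeq promoter windows of GRCh38.p14, from 250 bases before to 50 bases after a start site, were given for 24 of the 31 members. The p53 half-site, 10 bases with C and G in its core and here without a letter off, was found in 6 of these 24 genes (25%) and in 8.06% of all 27305 genes with a window. A full site, meaning 2 half-sites without a gap and with at most 2 letters off the pattern outside the core C and G, was found in 4 of the 24 (16.7%) and in 0.359% of all genes. The pattern reads the same on both strands, so 1 search covers both. The members were listed for their known link to p53, and the full-site search was made after the half-site search had been seen. These shares therefore describe the list and test nothing. A match is a string of letters and not a measurement of binding, and these arrays measured no binding. All sequences run 5′ to 3′ on the plus strand with the full site in capitals, and the longer ones end before the start site.
MDM2, chr12:68808833-68809016: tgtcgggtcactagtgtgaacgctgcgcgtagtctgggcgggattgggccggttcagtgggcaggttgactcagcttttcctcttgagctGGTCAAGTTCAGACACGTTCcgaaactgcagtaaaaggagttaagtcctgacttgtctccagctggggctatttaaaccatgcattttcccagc
FAS, chr10:88991219-88991418: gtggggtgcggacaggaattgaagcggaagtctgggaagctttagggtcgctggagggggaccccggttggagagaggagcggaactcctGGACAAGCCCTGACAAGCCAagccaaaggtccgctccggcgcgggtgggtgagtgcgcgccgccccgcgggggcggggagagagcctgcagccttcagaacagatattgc
AEN, chr15:88621216-88621339: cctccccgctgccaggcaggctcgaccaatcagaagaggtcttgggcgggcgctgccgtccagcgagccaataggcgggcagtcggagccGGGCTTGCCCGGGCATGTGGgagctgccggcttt
DDB2, chr11:47214969-47214988: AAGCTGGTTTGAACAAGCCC
The MDM2 stretch belongs to its internal promoter, through which p53 is known to act, and its full site began at position -94 from that start site, with no half-site free of mismatches in its windows. The FAS site began at position -122 and the AEN site at -34 from the start site of the window. The DDB2 site, printed alone, began at -5 and spans the start site. EI24, FDXR and PLK2 held a half-site only. The TATA box motif TATAAA, read on both strands, was in 1 of the 24 genes, GDF15, and in 14% of all genes.

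Differences within a line are log2 intensity with ZIC5 siRNA minus log2 intensity with control siRNA, and since each group was 1 array they have no replicate check and no test. A size rule of 1 log2 unit (2-fold) was used for them. The lines themselves were compared with limma over both transfections, so that each line had 2 arrays, with p-values adjusted over all 13794 genes. The 2 arrays of a line were of different transfections and so were not replicates, and the labels do not say that the samples came from separate cultures. The only residual of the fit is the difference between the lines in their siRNA response, moderated over all genes. The SEs and p-values of limma are measured against that and not against a spread between replicates. Intensities are given below for control siRNA, then ZIC5 siRNA. The median intensity of the arrays was between 38.4 and 39.4. ZIC5 itself read 16.8 then 14.1 in A375 versus 21.4 then 15.5 in SK-MEL-28, under the level minimum, so the knockdown could not be checked. The lineage factor SOX10 had intensities from 895 to 2135 on the 4 arrays, while the summed intensity of 7 melanocyte lineage markers was 1751 then 2316 in A375 versus 46520 then 43150 in SK-MEL-28, with 6 of the 7 called lower in A375 by limma at an adjusted p under 0.05. MLANA (13.9 and 17.0) and TYRP1 (7.51 and 8.10) were under 32 on both A375 arrays. The summed intensity of 10 markers of other cell types was 664 then 575 in A375 versus 300.0 then 310.0 in SK-MEL-28, and 5 of the 10 were at 32 or above on each array. The keratin KRT14 was the highest in A375, at 358 then 320. PTPRC, EPCAM, CDH5 and ALB, markers of immune, epithelial, endothelial and liver cells, had a mean log2 under 5, as did CD14. The T-cell gene CD3E (mean log2 5.84), the endothelial PECAM1 (6.16), GFAP (5.50), KRT5 (5.28) and KRT14 (6.81) were above it. A reading above the level minimum therefore does not by itself show that a gene was expressed. The part of these markers in the line differences below was not tested.

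After ZIC5 siRNA most of the p53 targets were a little higher in each line, by a median that was larger in A375 on the probe sets used. In A375, GDF15, TP53INP1 and FAS were at least 2-fold higher and TP53I3 at least 2-fold lower, so 3 of 28 members passed upwards, against 3.89% of all genes, and 1 passed downwards, against 5.05%. In SK-MEL-28, 0 of 28 passed upwards, against 0.776%, and 0 passed downwards, against 2.12%. At least 2-fold in both lines were 0 of 28, against 0.312% of all genes upwards and 1.15% downwards. The members had a median difference of 0.38 (A375) or 0.18 (SK-MEL-28), against -0.01 and 0.00 over all genes. Where the probe sets of each gene were averaged, the medians were 0.16 (A375) and 0.18 (SK-MEL-28), so that order was lost, and at a level minimum of 7 the A375 median was 0.59. With averaged probe sets 2 members passed upwards in A375, GDF15 and TNFRSF10B. In each line 19 of the 28 were higher (67.9%, against 48.5% of all genes for A375, 50.2% for SK-MEL-28), and 15 were higher in both (53.6%, against 31.5%). A further 5 were lower in both (17.9%, against 32.5%), and 8 differed in sign. The absolute difference was larger in A375 than in SK-MEL-28 for 21 of the 28, against 64.9% of all genes. The signs depend in part on the probe set used. Of 15 members with over 1 probe set at the level minimum, all probe sets had 1 sign for 7 in A375 and for 10 in SK-MEL-28.

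**Figure D1:**
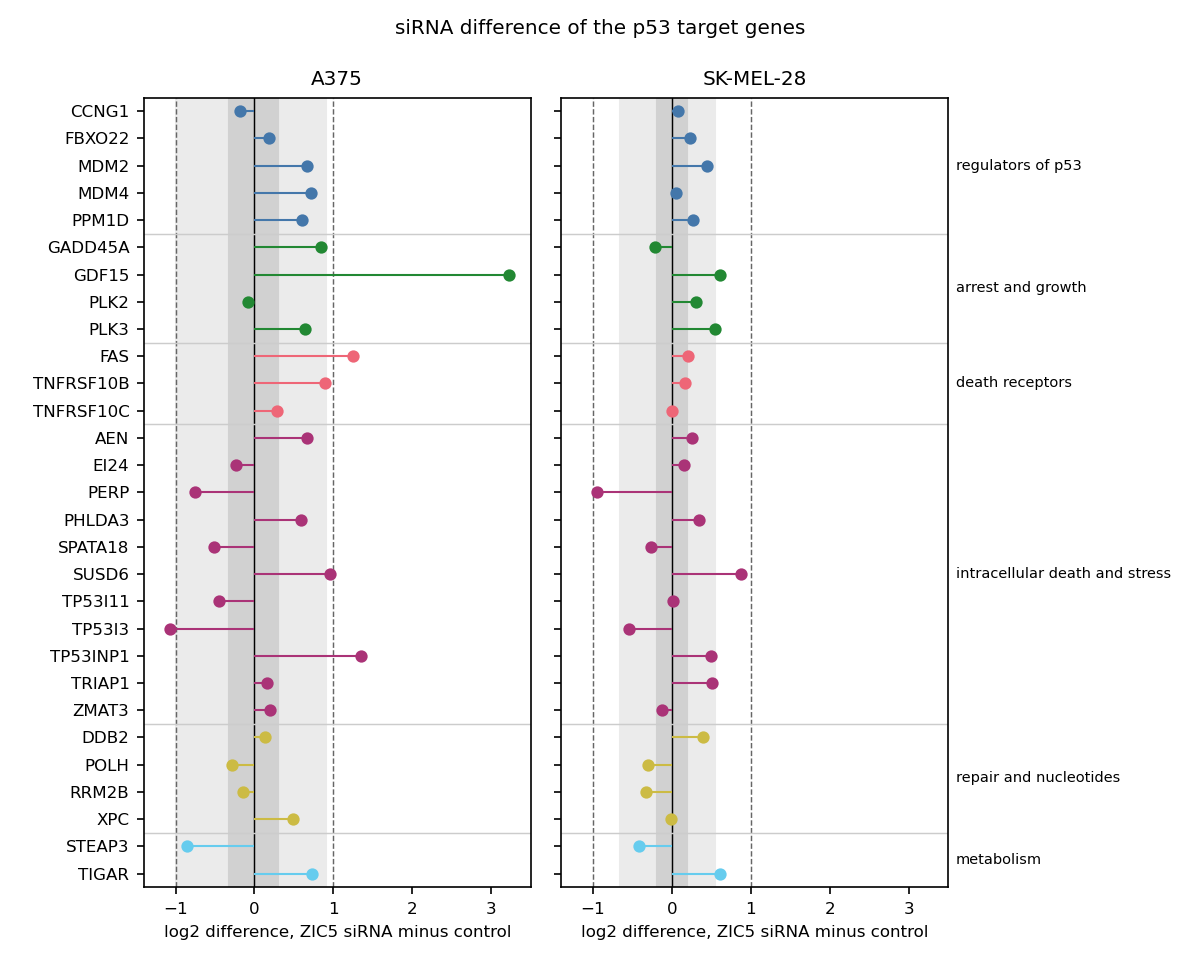
log2 difference with ZIC5 siRNA minus control siRNA (x axis) for the 29 genes with a probe set (y axis, by role) in A375 (left) and SK-MEL-28 (right), 1 pair of arrays per line. Shading spans the middle 50% and 90% of all genes and the dashed lines mark 2-fold; GDF15 reaches 3.23 in A375, and no gene passes the dashed lines in SK-MEL-28.

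For the siRNA effect over both lines, the limma model held line and transfection as additive terms. It called 0 of the 28 members and 0 of 13794 genes (0%) at an adjusted p under 0.05. At an unadjusted p under 0.05 it gave 5 members higher (17.9%, against 5.91% of all genes) and 3 lower (10.7%, against 7.31%). The 5 were SUSD6, TIGAR, MDM2, PLK3 and TP53INP1, and the 3 were PERP, TP53I3 and STEAP3. Among the 28, PERP had the lowest adjusted p in limma, 0.270, against a lowest value of 0.268 over all genes. An interaction of line and siRNA could not be fitted, so no difference between the lines in the response was tested.

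Among the regulators of p53, 4 of 5 were higher in A375 after ZIC5 siRNA, and 5 of 5 were in SK-MEL-28, all by less than 2-fold. MDM2, the ligase that marks p53 for destruction, read 1047 then 1661 in A375 versus 496 then 676 in SK-MEL-28. Both ZIC5 siRNA arrays lay above the control array of their line, by 0.67 and 0.45 (mean 0.56, SE 0.16 from limma, adjusted p 0.350). MDM2 had 5 probe sets at the level minimum, of which 3 were higher in A375, with differences from -0.36 to 0.67, and all 5 were higher in SK-MEL-28, from 0.01 to 0.46. Averaged over them the differences were 0.16 and 0.22, so the size of the MDM2 difference depends on the probe set. MDM4, which binds p53 and blocks its activity, read 687 then 1127 in A375 versus 389 then 404 in SK-MEL-28. It was higher by 0.72 in A375 and by 0.05 in SK-MEL-28, and over its 5 probe sets the A375 differences ran from 0.03 to 0.72. PPM1D, a phosphatase that reverses p53 activation, read 368 then 559 in A375 versus 197 then 236 in SK-MEL-28, differences of 0.60 and 0.27. Its other probe set at the level minimum had an A375 difference of -0.28. FBXO22, the substrate receptor of a ubiquitin ligase, differed by 0.18 and 0.23, and CCNG1, a cyclin that recruits a phosphatase to MDM2, by -0.18 and 0.08.

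In the group for arrest and growth, GDF15 stood apart from all other members. GDF15 encodes a secreted stress cytokine. It read 52.7 then 496 in A375, which is 9.41-fold higher, versus 3348 then 5106 in SK-MEL-28, which is 1.53-fold higher. The A375 control reading is no higher than that of the T-cell gene CD3E on the same array (56.4). The size of the A375 fold is therefore uncertain, and so is that of the GDF15 line difference. The A375 level after ZIC5 siRNA was still below both SK-MEL-28 arrays. These values come from 1 of 3 GDF15 probe sets, of the kind whose probes can also match other transcripts. The other 2 had mean log2 intensities of 4.70 and 4.41, under the level minimum, with A375 differences of 0.19 and 0.01.
GADD45A, a stress sensor that inhibits mitotic kinases, read 1381 then 2486 in A375 versus 2117 then 1813 in SK-MEL-28. The difference was 0.85 in the former but -0.22 in the latter, so the lines differed in sign. PLK3, a stress-responsive polo-like kinase, was higher by a similar size in both lines: it read 124 then 193 in A375 versus 178 then 261 in SK-MEL-28, differences of 0.64 and 0.55. A further PLK3 probe set that reached the level minimum gave 0.56 and 0.07. PLK2, a polo-like kinase of early G1, differed by -0.08 and 0.31.

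Of the 3 cell surface death receptors, FAS passed 2-fold in A375, TNFRSF10B came close to it and TNFRSF10C did not. FAS, the receptor of FAS ligand, read 204 then 485 in A375, which is 2.38-fold higher, versus 48.0 then 55.0 in SK-MEL-28. All 4 FAS probe sets at the level minimum were higher in A375, by 0.19 to 1.25, and 3 of 4 in SK-MEL-28. Averaged over the 4, the A375 difference was 0.94, just short of 2-fold. TNFRSF10B, the TRAIL receptor DR5, read 1199 then 2220 in A375 versus 591 then 661 in SK-MEL-28, differences of 0.89 and 0.16. Its 3 probe sets at the level minimum gave 0.89 to 1.17 in A375 but 0.16 to 0.17 in SK-MEL-28, so all were higher and of like size within each line. TNFRSF10C, a decoy TRAIL receptor without a death domain, stayed near the level minimum on every array, with intensities from 53.3 to 67.3, and its 2 probe sets at the level minimum differed in sign in A375 (0.28 and -0.13).

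**Figure D2:**
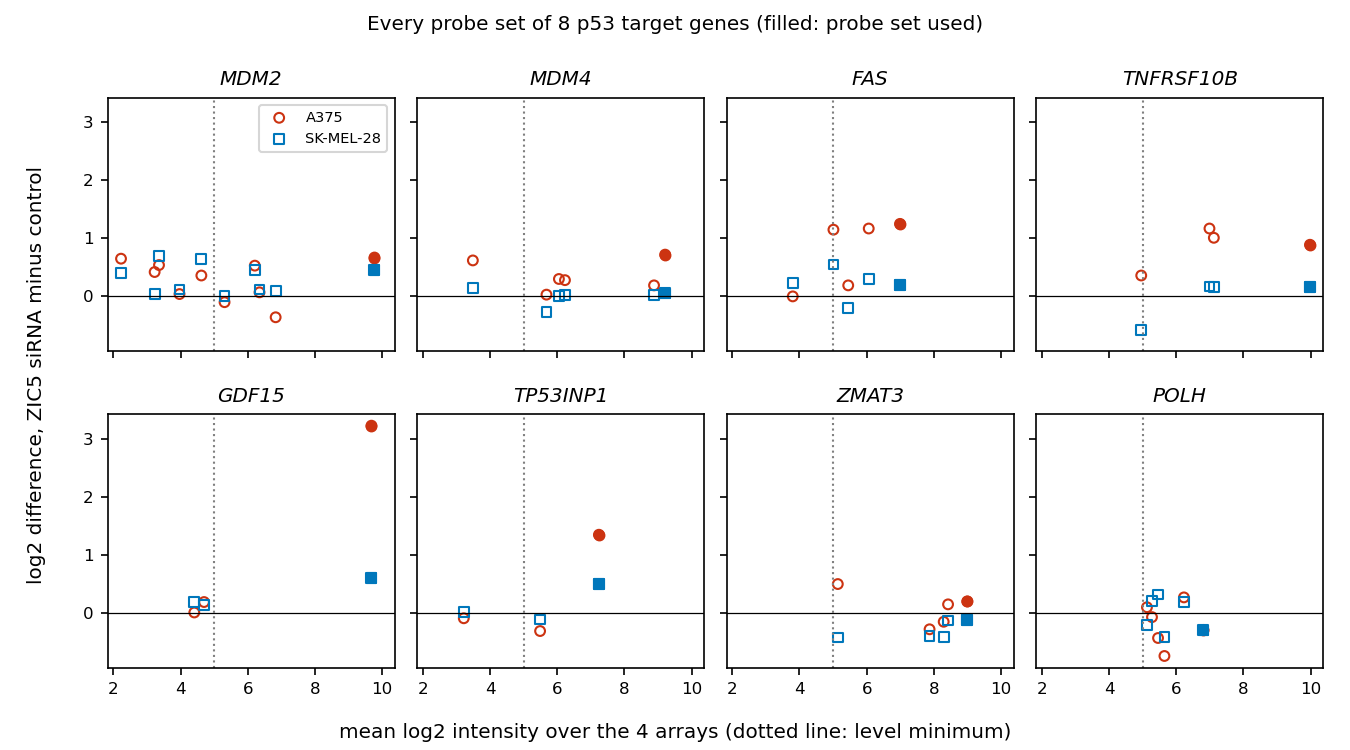
log2 difference with ZIC5 siRNA minus control siRNA (y axis) against mean log2 intensity over the 4 arrays (x axis) for every probe set of 8 genes, in A375 (circles) and SK-MEL-28 (squares), with the probe set used filled. TNFRSF10B gives like differences on its 3 probe sets at the level minimum, while the GDF15 and TP53INP1 differences rest on 1 probe set each.

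The intracellular death and stress genes went both ways. TP53INP1, a stress protein that promotes p53 phosphorylation and autophagy, read 85.4 then 217 in A375 versus 140 then 198 in SK-MEL-28. It was higher by 1.35 and 0.50, but its other probe set at the level minimum was lower in both lines, with differences of -0.31 and -0.11. Averaged over both probe sets the A375 difference was 0.52. The A375 control reading of TP53INP1 is no higher than that of the endothelial gene PECAM1 on the same array (88.3). The size of its A375 difference is therefore uncertain. SUSD6, a membrane protein also called DRAGO, was the member with the largest positive difference in SK-MEL-28: it read 183 then 357 in A375 versus 274 then 502 in SK-MEL-28. The differences of 0.96 and 0.87 were close to each other (mean 0.92, SE 0.17 from limma, adjusted p 0.286). AEN, a nuclease that degrades DNA in apoptosis and whose promoter site is printed above, differed by 0.67 and 0.26. PHLDA3, an inhibitor of AKT, differed by 0.59 and 0.34, with 1 of its 2 probe sets lower in A375. TRIAP1, a small inhibitor of apoptosis, differed by 0.16 and 0.51, the larger value here being that of SK-MEL-28.
Other genes of this group were lower. PERP, a membrane protein of desmosomes and apoptosis, read 1754 then 1042 in A375 versus 3376 then 1750 in SK-MEL-28, so both ZIC5 siRNA arrays lay below the control of their line, with differences of -0.75 and -0.95. Both PERP probe sets at the level minimum were lower in both lines. TP53I3, a quinone oxidoreductase that makes reactive oxygen, read 669 then 319 in A375, which is 2.10-fold lower, versus 384 then 263 in SK-MEL-28, which is 1.46-fold lower. SPATA18, under the level minimum, had intensities from 20.4 to 29.2. TP53I11 differed by -0.45 and 0.01, EI24, an endoplasmic reticulum protein of autophagy, by -0.24 and 0.15, and ZMAT3, an RNA-binding regulator of splicing, by 0.20 and -0.12. For ZMAT3, 3 of 5 probe sets shared the sign in A375 and all 5 in SK-MEL-28.

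Of the metabolic genes both that were measured, TIGAR and STEAP3, differed in opposite directions, while the 4 repair genes differed by less than 0.5 in either line. TIGAR, a phosphatase that lowers glycolytic flux, read 577 then 959 in A375 versus 553 then 845 in SK-MEL-28, differences of 0.73 and 0.61 (adjusted p 0.314 in limma). STEAP3, an iron reductase, read 245 then 135 in A375 versus 82.4 then 61.4 in SK-MEL-28, differences of -0.86 and -0.42. The nucleotide excision repair genes XPC and DDB2, which find damaged bases, differed by 0.49 and -0.01, and by 0.14 and 0.39. RRM2B, a ribonucleotide reductase subunit, differed by -0.15 and -0.33. POLH, the polymerase that copies past ultraviolet damage, differed by -0.29 and -0.30 on the probe set used, but its 6 probe sets at the level minimum ran from -0.74 to 0.27 in A375, with both signs in SK-MEL-28 too (-0.41 to 0.32).

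Between the lines the p53 targets of this set were more often higher in A375 than in SK-MEL-28. With limma, 12 of the 28 were higher in A375 at an adjusted p under 0.05 (42.9%, against 14.2% of all genes), and 3 were lower (10.7%, against 13.4%). At an unadjusted p under 0.05 in limma there were 13 higher (46.4%, against 22.7%) and 4 lower (14.3%, against 19.8%). The 12 were MDM2, MDM4, PPM1D, PLK2, FAS, TNFRSF10B, EI24, TRIAP1, DDB2, XPC, RRM2B and STEAP3, and the 3 were GDF15, ZMAT3 and PERP. The median line difference was 0.35, against 0.01 over all genes. Under control siRNA alone, 9 members were at least 2-fold higher in A375 (against 11.0% of all genes) and 2 at least 2-fold lower (against 11.2%). By role, 3 of 5 regulators, 1 of 4 arrest and growth genes, 2 of 3 death receptors, 2 of 10 intracellular death and stress genes, 3 of 4 repair genes and 1 of 2 metabolic genes were called higher in A375. Those called lower were 1 arrest and growth gene and 2 intracellular death and stress genes. Differences between these small groups were not tested.

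**Figure D3:**
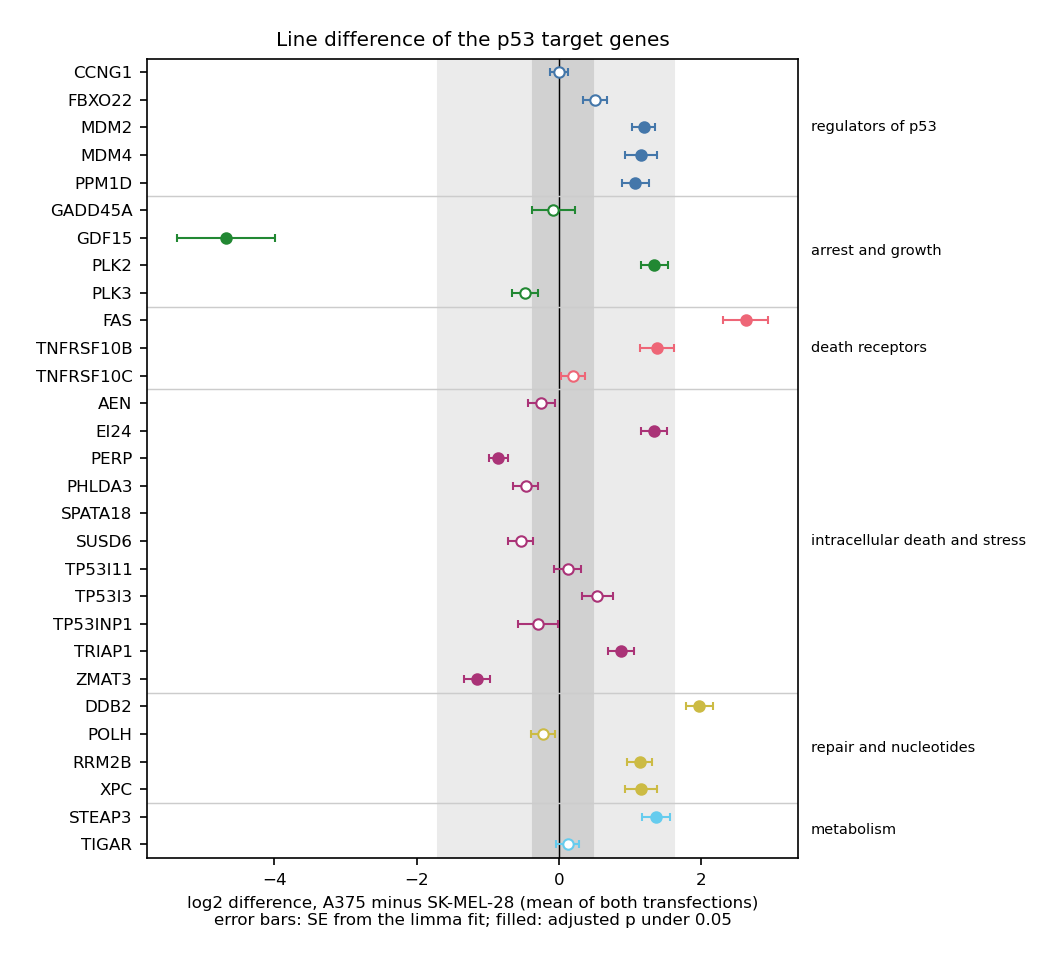
log2 difference A375 minus SK-MEL-28, averaged over both transfections (x axis), with the SE of the limma fit, for the 28 genes at the level minimum (y axis, by role); filled points have an adjusted p under 0.05 and shading spans the middle 50% and 90% of all genes. FAS and DDB2 lie farthest to the right at 2.62 and 1.97, and GDF15 lies at -4.68.

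FAS had the largest difference upwards. Its A375 intensities of 204 and 485 were both above the SK-MEL-28 intensities of 48.0 and 55.0 (log2 difference 2.62, SE 0.32, adjusted p 0.0144 in limma), and all 4 probe sets had that sign, from 1.72 to 2.87. The SK-MEL-28 readings of FAS were close to those of CD3E on the same arrays (59.8 and 54.0), so the size of the difference is uncertain. DDB2 came next, with 505 then 555 in A375 versus 118 then 154 in SK-MEL-28 (1.97, SE 0.19, adjusted p 0.00916 in limma). In each of these genes the 4 arrays fell into 2 groups by line without overlap. TNFRSF10B was higher by 1.38 (SE 0.24, adjusted p 0.0270 in limma), with 0.93 to 1.38 over 3 probe sets, but its difference under control siRNA was 0.69 when they were averaged. STEAP3 was higher by 1.36, PLK2 by 1.34, EI24 by 1.33, XPC by 1.15, RRM2B by 1.13, PPM1D by 1.07 and TRIAP1 by 0.87. In SK-MEL-28 STEAP3 read 82.4 and 61.4, near the endothelial gene PECAM1 on the same arrays (71.8 on both). The size of the STEAP3 line difference is therefore uncertain. For PLK2 the A375 intensities were 883 and 837 against 304 and 377, and for RRM2B they were 409 and 369 against 199 and 158. Both genes were thus set apart by line while their siRNA differences were small.

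The p53 inhibitors MDM2 and MDM4 were both higher in A375. MDM2 was higher by 1.19 (SE 0.16, adjusted p 0.0176 in limma), and the sign was shared by all 5 probe sets, from 0.40 to 1.22. MDM4 was higher by 1.15 (SE 0.23, adjusted p 0.0378 in limma), with the sign shared by 4 of 5. Without a level minimum the MDM4 and TRIAP1 adjusted p-values in limma were 0.0536 and 0.0535, above the threshold.

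The members lower in A375 were led by GDF15. It was 63.5-fold lower than in SK-MEL-28 under control siRNA, with a log2 difference of -3.36 under ZIC5 siRNA. The low A375 control reading of GDF15 leaves the size of this fold uncertain. Over both transfections its difference was -4.68 (SE 0.69, adjusted p 0.0202 in limma), with the limit of its single probe set at the level minimum given above: the other GDF15 probe sets differed by -0.35 and -0.09. ZMAT3 read 319 then 366 in A375 versus 792 then 727 in SK-MEL-28, a difference of -1.15 (SE 0.18, adjusted p 0.0240 in limma) with the same sign on all 5 probe sets. PERP differed by -0.85 (SE 0.14, adjusted p 0.0248 in limma). The remaining 13 members, among them GADD45A, TIGAR, AEN and CCNG1, did not pass, with line differences from -0.54 for SUSD6 to 0.54 for TP53I3.

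**Figure D4:**
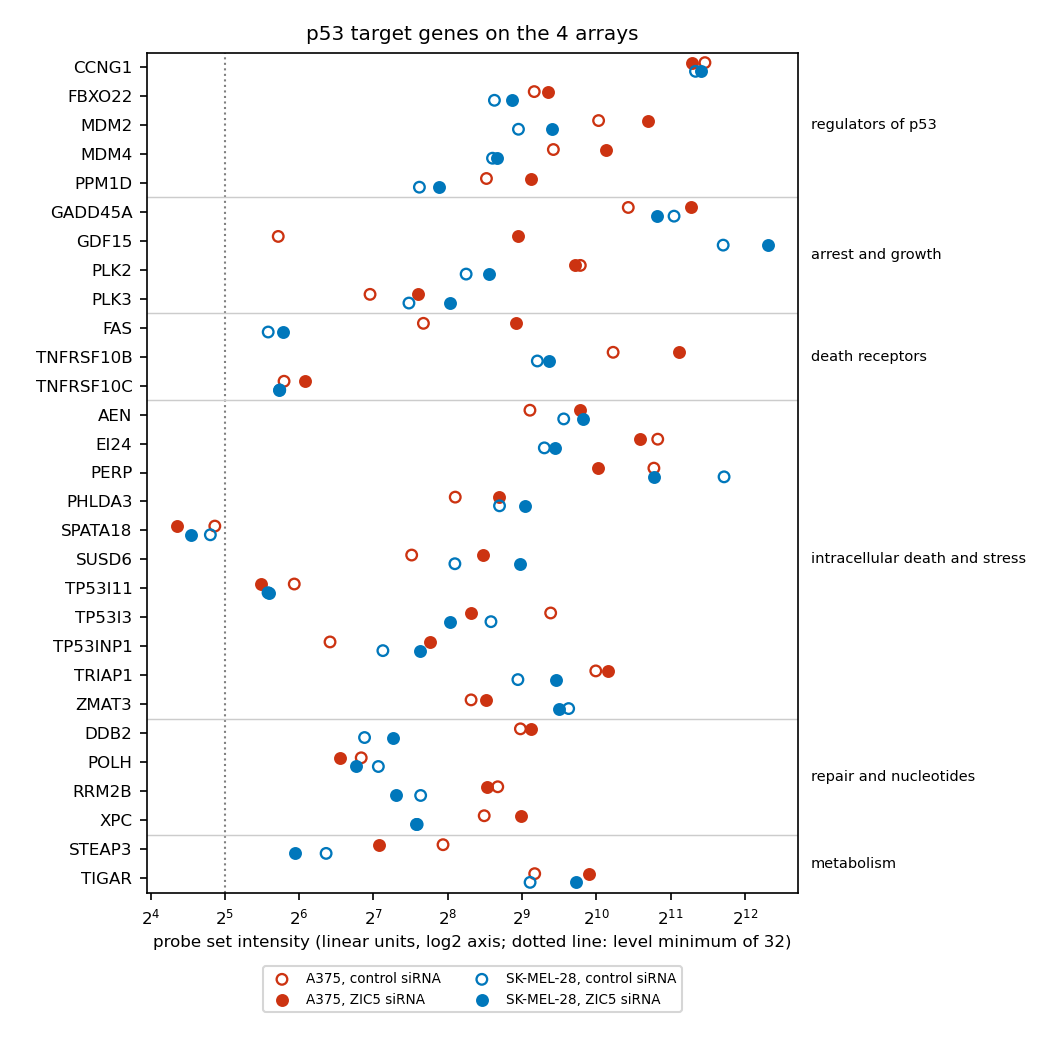
Intensity of the probe set used (x axis, log2 scale, linear units) for 29 p53 target genes (y axis, by role) on the 4 arrays; red is A375, blue SK-MEL-28, open circles control siRNA and filled circles ZIC5 siRNA, 1 array each. FAS, DDB2, PLK2, EI24 and STEAP3 separate by line, while SUSD6 and PERP shift alike with ZIC5 siRNA in both lines.

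Genes upstream of p53 and p53 targets outside the set were read from lists drawn up by name, with earlier results of these data known. Of 27 family and upstream genes 23 were at the level minimum, and 2 were at least 2-fold higher and 0 lower in A375 (against 3.89% and 5.05% of all genes), with 0 either way in SK-MEL-28 (against 0.776% and 2.12%) and medians of 0.10 and 0.04. ATM, the kinase that signals DNA breaks to p53, read 202 then 430 in A375 versus 613 then 612 in SK-MEL-28, a difference in A375 of 1.09. The ATM value is from 1 of 6 probe sets, of the kind whose probes can also match other transcripts. The other ATM probe sets were not compared. RCHY1, another ligase for p53, differed by 1.29 and 0.42. The kinases CHEK1 and CHEK2 differed by -0.43 and 0.54, and by -0.57 and -0.12, and between the lines CHEK1 was called higher in A375 (1.35) and CHEK2 lower (-0.99), with adjusted p 0.0456 and 0.0401 in limma. Smaller siRNA differences were found for the acetyltransferase EP300 (0.49 and 0.23), the telomerase assembly factor WRAP53 (-0.55 and -0.17), the deubiquitinase USP7 (0.28 and 0.21) and the p53 relative TP73 (-0.15 and 0.06). Between the lines 3 of the 23 were called higher and 3 lower in A375 by limma, which is near the shares of 14.2% and 13.4% over all genes. CDKN2A, whose products include the MDM2 inhibitor ARF, read 62.9 then 67.2 in A375 versus 1050 then 1081 in SK-MEL-28. The line difference was -4.04 (SE 0.17, adjusted p 0.00281 in limma). Its A375 readings were close to those of CD3E on the same arrays (56.4 and 59.6), so the size of the difference is uncertain. The value is from 1 of 3 CDKN2A probe sets and was not shown to be that of the ARF transcript.

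Of 57 further p53 targets 52 were at the level minimum. In A375, 4 were at least 2-fold higher and 4 lower, against 3.89% and 5.05% of all genes. In SK-MEL-28, 2 were higher and 3 lower, against 0.776% and 2.12%. The medians were 0.22 and 0.04. CDKN1A, the CDK inhibitor p21, read 1326 then 2945 in A375 versus 156 then 319 in SK-MEL-28, a siRNA difference of 1.15 and 1.03 and a line difference of 3.15 (SE 0.16, adjusted p 0.00340 in limma). The stress protein SESN2 differed by 3.32 and 1.41 and the growth factor binding protein IGFBP3 by 2.72 and -0.32, while IKBIP differed by -1.27 and -1.28 and HHAT, the acyltransferase of hedgehog ligands, by -1.03 and -1.15. Between the lines 10 of the 52 were called higher in A375 and 4 lower, against 14.2% and 13.4% of all genes.

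The members GDF15 and TNFRSF10B are also known targets of the stress factors ATF4 and CHOP, the product of DDIT3. Of 7 genes listed for that pathway, at least 2-fold higher were 7 (A375, against 3.89% of all genes) and 5 (SK-MEL-28, against 0.776%). All were higher in both lines (against 31.5%), with medians of 2.50 (A375) and 1.15 (SK-MEL-28). The list was chosen with earlier results of these data known, so these shares describe it and test nothing. ATF4 read 3284 then 6583 in A375 versus 2667 then 5731 in SK-MEL-28, and DDIT3 read 214 then 1497 versus 261 then 431. ASNS, which makes asparagine, differed by 2.53 and 3.14, CHAC1, which degrades glutathione, by 3.02 and 1.80, the transcription factor ATF3 by 2.50 and 0.64, and DDIT4, an inhibitor of mTOR, by 1.60 and 1.15. The part of this pathway in the differences of the p53 targets was not tested.

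**Figure D5:**
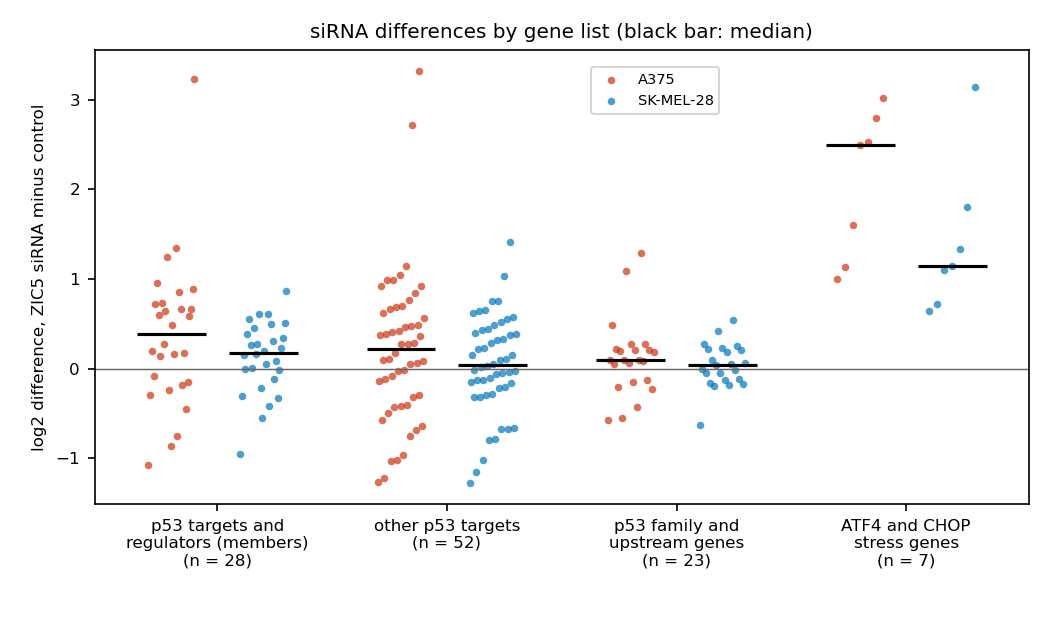
log2 difference with ZIC5 siRNA minus control siRNA (y axis) for the genes at the level minimum in 4 gene lists (x axis), each point 1 gene, red A375 and blue SK-MEL-28, with the median as a bar. The medians of the p53 targets are 0.38 and 0.18, those of the other p53 targets 0.22 and 0.04, and those of the ATF4 and CHOP genes 2.50 and 1.15.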

How the data were processed

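Each of the 4 arrays received 100 ng of RNA, per the labels' protocols. The authors deposited linear intensity values by probe set; the submitters' processing notes name RMA and the Affymetrix Expression Console, and their versions are not given in the sources used here. log2 was taken here. RMA summarises the probes of a probe set and compresses low values, and the number of arrays limits the precision.

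Genes were assigned from the annotation of the array design: of 54613 probe sets, 41091 named 1 gene, 1801 several and 11721 none, and 41037 matched RefSeq (GRCh38.p14) with 0 symbols changed. Each gene took its highest probe set, and genes of a mean log2 of at least 5 entered counts and the fit. Line and siRNA effects came from 1 additive fit (limma 3.58.1 in R 4.3.3, lmFit and eBayes with trend, Benjamini-Hochberg adjustment at 0.05, 1 residual and 2.85 prior degrees of freedom). The fit was also run on simulated arrays with known line differences, independent noise and no siRNA effect. That run cannot show whether the p-values hold for these arrays. All members were named. In the other lists, genes set by name and up to 4 with the greatest mean siRNA difference were named. The members and lists were chosen with earlier results of these data known, and the full-site search after the half-site search had been seen. Alternatives changed the level filter, floor, normalization, probe sets and eBayes settings.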

Additional observations from a re-analysis of the deposited data

Results flagged for a closer look

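GADD45A was the single member whose differences had opposite signs in the lines and were larger in both than the median spread (SD) among probe sets of the same gene, 0.25 (A375) or 0.15 (SK-MEL-28). It was higher by 0.85 in A375 and lower in SK-MEL-28, with a difference of -0.22. It had 1 probe set at the level minimum. With 1 array per group, the difference between the lines was not tested.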

How the results depend on the processing

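The median siRNA differences of the members stayed positive in both lines under the alternatives run, and the counts changed as given here. The 12 and 3 members called for the line became 10 and 3 without a level minimum, and 10 and 3 at a minimum of 7, which FAS and STEAP3 do not reach. They stayed at 12 and 3 with a floor at log2 5, quantile normalization, cyclic loess, averaged probe sets, no intensity trend and robust eBayes. The 3 members at least 2-fold higher in A375 became 2 at a minimum of 7, without FAS, and with averaged probe sets. The 9 at least 2-fold higher in A375 than SK-MEL-28 under control siRNA became 6 with cyclic loess, while the 2 at least 2-fold lower became 3. The A375 median ran from 0.16 (averaged probe sets) to 0.59 (minimum of 7), and that of SK-MEL-28 from 0.16 to 0.26. Of single values, 13 moved by more than the spread among probe sets, all of them with averaged probe sets. Limma called 0 members for the siRNA effect under every alternative. The siRNA effect was fitted with the line as a term, so each ZIC5 siRNA array was set against the control of its own line. Leaving out any array would leave that fit no residual degrees of freedom. Low intensities limit TNFRSF10C, TP53I11 and SPATA18, and on some arrays GDF15, FAS, TP53INP1 and STEAP3.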
